A study of Mus musculus with 7 samples.

Results

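The genes described here carry out mitosis: they condense the chromosomes, build the spindle, attach and separate the sister chromatids and split the cell. There are 39 of them, listed by name, and each was found in the deposited table of 24537 mouse genes by its first symbol. All 39 reached 1 FPKM (fragments per kilobase of transcript, scaled to library depth) in at least 2 of the 7 libraries, and 37 did so in all 7. The RNA came from microglia, the resident macrophages of the brain, of C57BL/6 mice in which the 005 glioma, a mouse glioblastoma model, had been implanted 35 days earlier. Cells with intermediate CD45 and with CX3CR1 were sorted. Every mouse carried the tumour, and by the labels the groups differed in treatment: control IgG (n = 2 libraries), anti-CTLA4 (n = 2) or anti-CTLA4 with depletion of CD4 cells (n = 3). Age, sex and pooling of animals are not given in the sources used here, so the error given below is the spread between libraries, which may be technical.

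In dividing cells these genes are transcribed late, from S phase through mitosis, and most are repressed in cells that have left the cycle. Many are controlled by the MuvB complex with B-Myb and Foxm1, which acts through a short promoter motif, the cell cycle genes homology region (CHR), beside CCAAT boxes bound by NF-Y. Resting microglia divide slowly, whereas glioma cells and microglia activated by injury can divide. In bulk RNA, fewer cycling cells and less of each transcript per cell cannot be told apart.

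Microglia markers were high in every library, with P2ry12, a purinergic receptor, at 147 to 1088 FPKM and Tmem119 at 243 to 1001, and Cd3e of T cells did not pass 1.07. Markers of other cells were present too: Olig2 of oligodendrocyte precursors and glioma cells reached 87.01 FPKM in IgG replicate 2, and Ccr2 of monocytes 43.1 in depletion replicate 1. Low values implied 83800000 to 107000000 reads per library, and each of the 39 genes had 311 to 11879 reads in every library. These reads come from an amplified low-input library without molecular identifiers, so they are not independent molecules. A conflict of names touches 1 group. Sheet numbers 29 and 30 stand in the names of its columns, but the command kept in the header ties 29 and 30 to interferon-gamma receptor knockouts. That command ties anti-CTLA4 to 10, 11 and 31, and the library with 31 has no column. The columns are therefore called the libraries labelled anti-CTLA4, and each direction against them rests on that name. Y-linked transcripts (4 genes) summed to 9.53 to 14.5 FPKM in the depletion libraries and 0.514 to 3.35 in the other 4, so a difference in sex cannot be told apart from depletion.

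Mitotic genes were lowest in the libraries labelled anti-CTLA4 and highest with CD4 depletion. The 39 genes summed to 482 and 403 FPKM in IgG, 343 and 139 in the libraries labelled anti-CTLA4, and 492, 592 and 573 with depletion. Anti-CTLA4 replicate 2 held the lowest value of all 7 libraries for 39 of 39 genes. Its partner, replicate 1, was next lowest for 26 genes, and IgG replicate 2 for 11. The highest value lay in a depletion library for 37 genes, 16 of them in replicate 2, 14 in replicate 3 and 7 in replicate 1, and in IgG replicate 1 for 2 genes. The libraries labelled anti-CTLA4 were thus far apart from each other. All 39 genes were higher in replicate 1 than in replicate 2, by a median of 0.94 on the log2(FPKM + 1) scale, while the median over all 13028 tested genes was 0.055. The IgG libraries differed by a median of 0.20, with 30 genes higher in replicate 1, and the closest depletion libraries, replicates 2 and 3, by 0.015. Depletion replicate 1 minus replicate 2 and minus replicate 3 gave medians of -0.17 and -0.15, beside -0.18 and -0.14 over all tested genes.

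**Figure D1:**
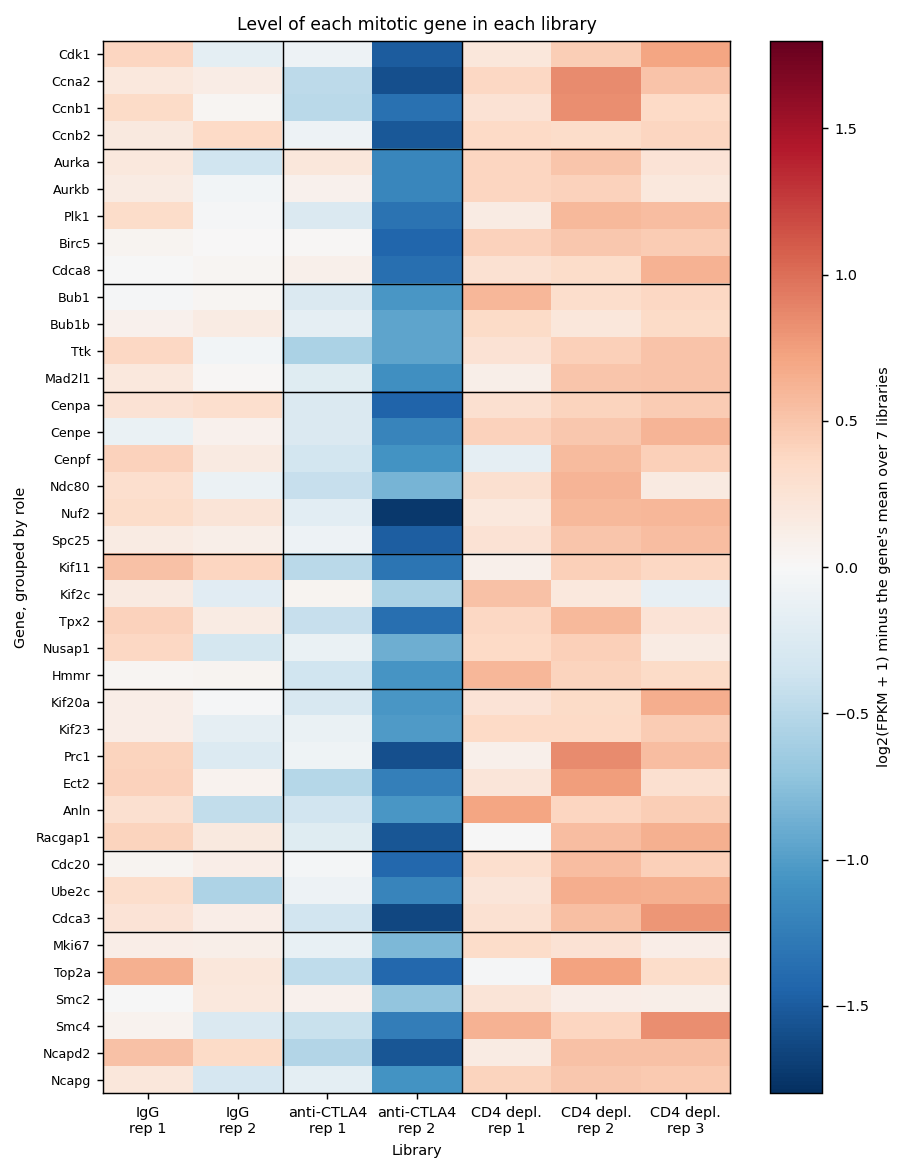
Each row is 1 mitotic gene, grouped by role, and each column 1 library; colour gives log2(FPKM + 1) minus the gene's mean over the 7 libraries. The column of anti-CTLA4 replicate 2 is the lowest for all 39 genes, and the depletion libraries hold the highest value for 37.

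The promoters of these genes were searched for the CHR letters TTTGAA and for CCAAT on both strands. The window ran from 250 bases before to 50 after the transcription start. RefSeq promoters (GRCm38.p6) matched 34 of the 39 genes, with 36 starts. TTTGAA was in 29 of the 36 (80.6%), against 17.9% of all 32851 promoters of the same length and 11.7% of the 12630 promoters of tested genes. CCAAT was likewise in 29 (80.6%), against 37.4% and 37.6%, and 19 (52.8%) held at least 2, against 11.7% and 14% (CCAATTGG counts as 2 overlapping matches). Both motifs were in 26 (72.2%), against 6.95% and 4.62%. A match is a run of letters, not a shown binding site. TTTGAA lay near the start, at a median of base 3 after it, while CCAAT lay at a median of 71 bases before it. Of the 37 TTTGAA matches, 29 lay from 100 bases before to 50 after the start, as did 46 of 68 CCAAT matches, and 1 pair of the different motifs overlapped. Neither was found in the windows of Birc5, Mad2l1, Nuf2 and Nusap1. Over the 7 libraries these genes followed the mean of the other members with r of 0.974, 0.987, 0.983 and 0.920. A link between the motifs and the levels was not tested.

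The promoters below belong to the genes with the highest mean levels and with the lowest mean level among those that hold both motifs. They are printed 5′ to 3′ on the gene's strand, with matches to TTTGAA or CCAAT, on either strand, in capitals. They lie at chr2:164769679-164769978 (plus strand, Ube2c), chr5:30666636-30666935 (plus strand, Cenpa) and chr1:189688037-189688336 (minus strand, Cenpf).
Ube2c: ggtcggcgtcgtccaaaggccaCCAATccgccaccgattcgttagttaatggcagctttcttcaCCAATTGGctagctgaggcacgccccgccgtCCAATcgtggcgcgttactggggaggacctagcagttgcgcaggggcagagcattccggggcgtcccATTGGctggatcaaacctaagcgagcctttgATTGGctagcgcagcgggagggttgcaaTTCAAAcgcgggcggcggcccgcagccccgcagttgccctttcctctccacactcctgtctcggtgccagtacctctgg
Cenpa: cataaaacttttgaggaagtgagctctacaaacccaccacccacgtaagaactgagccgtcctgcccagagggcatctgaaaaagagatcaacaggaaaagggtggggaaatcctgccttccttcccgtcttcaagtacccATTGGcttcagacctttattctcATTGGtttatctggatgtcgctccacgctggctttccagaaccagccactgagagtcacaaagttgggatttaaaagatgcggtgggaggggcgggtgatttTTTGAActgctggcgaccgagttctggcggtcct
Cenpf: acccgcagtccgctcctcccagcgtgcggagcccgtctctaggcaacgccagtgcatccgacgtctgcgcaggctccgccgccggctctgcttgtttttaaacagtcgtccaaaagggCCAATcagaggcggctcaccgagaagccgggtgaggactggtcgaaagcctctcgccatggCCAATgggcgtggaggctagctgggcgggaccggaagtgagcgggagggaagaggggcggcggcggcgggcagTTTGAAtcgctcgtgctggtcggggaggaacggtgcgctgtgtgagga
Ube2c holds 6 CCAAT matches, of which 2 overlap, and its TTTGAA, on the opposite strand, begins 29 bases before the start. In Cenpa the TTTGAA begins 17 bases and in Cenpf 3 bases after the start, each behind 2 CCAAT matches. Genes that hold both motifs differed widely in level per length: Ube2c had a mean of 32.7 FPKM over the 7 libraries and Cenpf of 3.08.

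**Figure D2:**
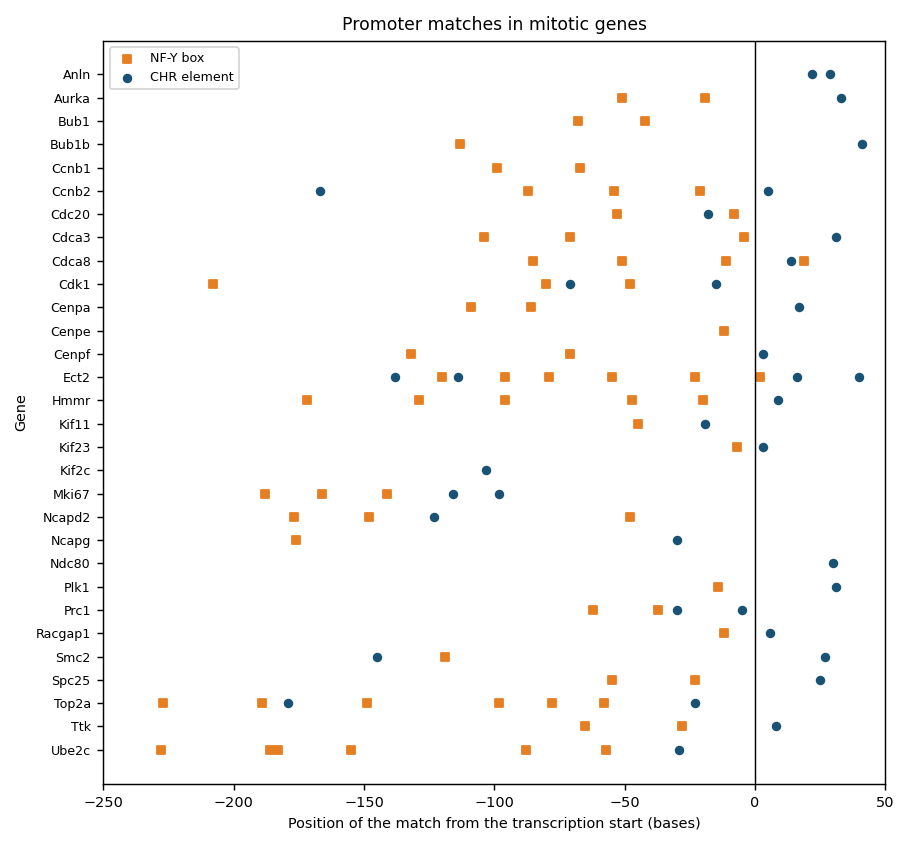
Position of each TTTGAA match (CHR element, circles) and CCAAT match (NF-Y box, squares) from the transcription start, in bases, for the mitotic genes with a match. Circles gather around the start, at a median of base 3, and squares lie before it, at a median of -71.

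The genes are described by role below, and the counts of calls in each role are to be read against all 13028 tested genes. Of these, 28.8% fell in the libraries labelled anti-CTLA4 against IgG and 22.8% rose with depletion against those libraries (limma, adjusted p under 0.05). With median-of-ratios scaling 2277 of them fell and 1669 rose, and with quantile normalization 2081 and 1452. The first gene group is the engine of mitosis, Cdk1 and its cyclins. Cdk1, the kinase that drives cells into mitosis, stood at 20.3 and 13.4 FPKM in IgG, 14.3 and 4.78 in the libraries labelled anti-CTLA4, and 17.7, 21.02 and 25.6 with depletion. Ccna2, cyclin A2, its partner in S phase and early mitosis, lies on chromosome 3 from 36564865 to 36571996 (mm10) and stood at 25.5 and 24.5 FPKM in IgG, 15.7 and 6.79 in the libraries labelled anti-CTLA4, and 28.9, 40.9 and 32.2 with depletion. Every depletion library was above every other library for Ccna2, and both libraries labelled anti-CTLA4 were below the rest. It fell in those libraries against IgG (log2 difference -1.19, SE 0.34, limma adjusted p = 0.0316) and was higher with depletion than in them (1.60, SE 0.31, adjusted p = 0.0159), the largest such difference of the 39 genes. Cyclin B1 itself, Ccnb1, which switches Cdk1 on at mitotic entry, had 11.6 and 9.16 FPKM in IgG, 6.08 and 2.92 in the libraries labelled anti-CTLA4 and 10.8, 16.7 and 11.7 with depletion. Its differences were -1.11 (SE 0.32, adjusted p = 0.0326) and 1.40 (SE 0.29, adjusted p = 0.0178). Ccnb2, the other B-type cyclin, rose with depletion against those libraries (1.17, SE 0.37, adjusted p = 0.0495). Cdk1 missed the threshold there (1.24, SE 0.40, limma adjusted p = 0.0523), and its anti-CTLA4 replicate 1 stood above IgG replicate 2. With median-of-ratios scaling or quantile normalization 0 of these 4 genes fell against IgG and 2 rose with depletion.

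Mitotic kinases and the chromosomal passenger complex, which corrects faulty attachments to the spindle, had 0 of 5 calls against IgG (28.8% of all tested genes fell) and 2 of 5 with depletion (22.8% rose). With median-of-ratios scaling or quantile normalization 0 of 5 passed with depletion. Plk1, polo-like kinase 1, stood at 14.7 and 11.3 FPKM in IgG, 9.42 and 3.999 in the libraries labelled anti-CTLA4, and 12.9, 17.7 and 17.3 with depletion. It rose with depletion against the libraries labelled anti-CTLA4 (1.22, SE 0.32, limma adjusted p = 0.0293) and followed the mean of the other mitotic genes over the 7 libraries more closely than any other member did (r = 0.991, a description over libraries that share these groups). Birc5, or survivin, a passenger subunit on chromosome 11 from 117849237 to 117855743, was the third most abundant of the 39, at 22.8 and 22.05 FPKM in IgG, 22.3 and 7.54 in the libraries labelled anti-CTLA4, and 29.5, 31.3 and 30.7 with depletion. It too rose with depletion (1.16, SE 0.36, adjusted p = 0.0498). The Aurora kinases and Cdca8, or borealin, did not pass in any comparison. Aurkb, the passenger kinase, had 10.1 and 8.61 FPKM in IgG against 9.54 and 3.39 and 12.02, 12.3 and 10.4 in the other groups, so that the groups IgG and anti-CTLA4 overlapped. Aurka, the centrosomal Aurora kinase, overlapped there as well, at 13.3 and 8.75 against 13.4 and 4.52 FPKM.

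The spindle assembly checkpoint holds cells before anaphase until every chromosome is attached. All 4 of its genes listed here (Bub1, Bub1b, Ttk and Mad2l1) rose with depletion against the libraries labelled anti-CTLA4, by 0.84 to 1.16 on the log2 scale, beside 22.8% of all tested genes. With median-of-ratios scaling 2 of the 4 passed, and with quantile normalization 1. Ttk, the kinase Mps1 that starts the checkpoint signal, stood at 4.51 and 3.10 FPKM in IgG, 1.88 and 1.20 in the libraries labelled anti-CTLA4, and 4.09, 4.73 and 5.11 with depletion. Ttk also fell in the libraries labelled anti-CTLA4 against IgG (-0.92, SE 0.23, limma adjusted p = 0.0228), and its rise with depletion had the smallest p of the 39 genes (SE 0.21, adjusted p = 0.0146). Against IgG 1 of the 4 genes fell with median-of-ratios scaling and 0 with quantile normalization. Mad2l1, the inhibitor of Cdc20, stood at 13.5 and 11.9 FPKM in IgG, 9.95 and 4.92 in the libraries labelled anti-CTLA4, and 12.7, 16.96 and 17.1 with depletion. Bub1b, which encodes the checkpoint protein BubR1, was at 7.75 and 8.16 FPKM in IgG and 6.45 and 3.30 in the libraries labelled anti-CTLA4.

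Centromere and kinetochore genes, build the site where microtubules attach. All 6 rose with depletion against the libraries labelled anti-CTLA4, beside 22.8% of all tested genes, and 2 of the 6 passed with median-of-ratios scaling or quantile normalization. Cenpa, the histone variant that marks centromeres, stood at 23.7 and 24.4 FPKM in IgG, 16.2 and 6.55 in the libraries labelled anti-CTLA4, and 24.03, 26.1 and 27.1 with depletion, and no library labelled anti-CTLA4 reached any other library. Its difference from IgG was -1.14 (SE 0.34, limma adjusted p = 0.0355), the call in this group. With median-of-ratios scaling or quantile normalization 0 of the 6 fell against IgG. The outer kinetochore genes Ndc80, Nuf2 and Spc25, whose products form 1 complex that grips microtubules, had differences of 0.97, 1.41 and 1.23 with depletion. Spc25 stood at 11.97 and 11.6 FPKM in IgG, 10.02 and 3.22 in the libraries labelled anti-CTLA4, and 13.1, 15.7 and 16.3 with depletion. Cenpe, a kinesin of the kinetochore, had 3.12 and 3.73 FPKM in IgG, 2.75 and 0.958 in the libraries labelled anti-CTLA4 and 4.96, 5.24 and 5.83 with depletion, 3 groups that did not overlap. Cenpf, a large coiled-coil protein of the kinetochore, missed the threshold narrowly against IgG (-0.99, SE 0.33, adjusted p = 0.0501), at 2.04 and 0.831 against 4.12 and 3.29 FPKM.

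Among spindle motors and microtubule binders, 3 of 5 fell against IgG (28.8% of all tested genes did) and 3 of 5 rose with depletion (22.8% did). With median-of-ratios scaling or quantile normalization 1 fell and 3 rose. Kif11, the motor that pushes spindle poles apart, stood at 6.89 and 6.11 FPKM in IgG, 2.91 and 1.19 in the libraries labelled anti-CTLA4, and 4.84, 6.32 and 6.05 with depletion. It had the smallest p of the 39 genes in the libraries labelled anti-CTLA4 against IgG (-1.36, SE 0.29, limma adjusted p = 0.0139). Tpx2, the activator of Aurora A on the spindle, stood at 11.9 and 9.80 FPKM in IgG, 6.31 and 2.81 in the libraries labelled anti-CTLA4, and 11.5, 13.6 and 10.5 with depletion and passed in both directions (-1.16, SE 0.31, and 1.28, SE 0.28). Hmmr, a hyaluronan receptor that also binds spindle poles, passed in both as well, with -0.76 and 1.16. Kif2c, a microtubule depolymerase at centromeres, stood at 7.41 and 5.47 FPKM in IgG, 6.71 and 4.06 in the libraries labelled anti-CTLA4, and 9.74, 7.56 and 5.74 with depletion, so that depletion replicate 3 lay below anti-CTLA4 replicate 1, the only overlap of these groups among the 39 genes. Its differences were -0.24 (SE 0.30) and 0.45 (SE 0.27), neither past the threshold. Nusap1, a microtubule bundler at 8.74 and 5.08 FPKM in IgG, did not pass either.

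Midzone and cytokinesis genes act after the chromatids part. Of these 6 genes 5 rose with depletion, and 2 did with median-of-ratios scaling or quantile normalization. Racgap1, a subunit of centralspindlin on chromosome 15 from 99620496 to 99651656, was the most abundant of them, at 24.9 and 21.3 FPKM in IgG, 15.9 and 5.79 in the libraries labelled anti-CTLA4, and 18.5, 27.9 and 29.6 with depletion. Racgap1 rose with depletion against the libraries labelled anti-CTLA4 (1.27, SE 0.38, limma adjusted p = 0.0428). Prc1, which crosslinks midzone microtubules, stood at 18.2 and 11.3 FPKM in IgG, 12.7 and 3.83 in the libraries labelled anti-CTLA4, and 14.5, 25.2 and 20.4 with depletion and did not pass (1.33, SE 0.45, adjusted p = 0.059). Ect2, the exchange factor that starts the contractile ring, was the call of this group against IgG (-1.11, SE 0.30, limma adjusted p = 0.0258). With the kinesins Kif20a and Kif23 and the ring scaffold Anln it rose with depletion, by 0.95 to 1.29. Against IgG 0 of the 6 fell with median-of-ratios scaling or quantile normalization. Anln stood at 5.56 and 2.95 FPKM in IgG, 3.23 and 1.59 in the libraries labelled anti-CTLA4, and 7.76, 5.99 and 6.25 with depletion, with IgG replicate 2 below anti-CTLA4 replicate 1.

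Ubiquitin-dependent exit from mitosis is represented by Ube2c, Cdc20 and Cdca3. Ube2c, the ubiquitin-conjugating enzyme of the anaphase-promoting complex, lies on chromosome 2 from 164769929 to 164772902 and was the most abundant of the 39, at 37.5 and 20.1 FPKM in IgG, 28.2 and 12.6 in the libraries labelled anti-CTLA4, and 35.2, 47.9 and 47.4 with depletion. IgG replicate 2 lay below anti-CTLA4 replicate 1 for Ube2c, and the gene passed in no comparison. Cdca3, which promotes mitotic entry, stood at 18.2 and 16.7 FPKM in IgG, 11.8 and 4.20 in the libraries labelled anti-CTLA4, and 18.7, 22.7 and 27.3 with depletion, without overlap between the libraries labelled anti-CTLA4 and the rest. It passed in both directions (-1.17, SE 0.39, limma adjusted p = 0.0493, and 1.53, SE 0.36, adjusted p = 0.0226). Cdc20, the activator of the same complex, rose with depletion (1.15, SE 0.36, limma adjusted p = 0.0476). With median-of-ratios scaling or quantile normalization 0 of these 3 genes fell against IgG and 1 rose with depletion.

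Chromosome compaction genes shape the mitotic chromosomes. Of the 6, 2 fell against IgG and 4 rose with depletion, which became 1 and 2 with median-of-ratios scaling or quantile normalization. Top2a, the topoisomerase that untangles sister chromatids, lies on chromosome 11 from 98992947 to 99024189 and stood at 24.6 and 17.8 FPKM in IgG, 10.99 and 5.16 in the libraries labelled anti-CTLA4, and 15.2, 26.3 and 19.6 with depletion. Ncapd2, a condensin I subunit on chromosome 6 from 125168007 to 125191586, stood at 13.9 and 12.2 FPKM in IgG, 6.19 and 2.55 in the libraries labelled anti-CTLA4, and 10.5, 13.9 and 13.9 with depletion, and had the largest fall of the 39 genes against IgG (-1.47, SE 0.33, limma adjusted p = 0.0154). Top2a fell there too (-1.35, SE 0.36, adjusted p = 0.0262), and both rose with depletion (1.28 and 1.43). Smc4, a core condensin ATPase, had 11.4 and 8.98 FPKM in IgG, 8.02 and 4.02 in the libraries labelled anti-CTLA4 and 17.3, 14.5 and 20.2 with depletion. Its rise with depletion was 1.44 (SE 0.27, adjusted p = 0.0152). Smc2, the partner ATPase of Smc4 in the same complex, stood at 4.54 and 5.36 FPKM in IgG, 4.90 and 2.39 in the libraries labelled anti-CTLA4, and 5.51, 5.04 and 5.01 with depletion, and its difference was 0.47 (SE 0.25, adjusted p = 0.177), below the threshold. Mki67, the Ki-67 proliferation marker that coats mitotic chromosomes, was among the 3 least abundant members per length, at 3.87 and 3.80 FPKM in IgG, 3.08 and 1.55 in the libraries labelled anti-CTLA4, and 4.65, 4.38 and 3.88 with depletion. It missed the threshold with depletion (0.72, SE 0.23, adjusted p = 0.0503).

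Because counting ignored strand, a gene and an overlapping neighbour on the other strand cannot be told apart. In GENCODE M21, 8 of the 39 genes share exon bases with another gene: 31.8% of exon bases for Kif20a (with Cdc23), 22.8% for Ube2c (with Tnnc2), 21.8% for Prc1, 20.8% for Ncapg and 2.96% to 10.4% for Ccna2, Plk1, Nusap1 and Cdc20. Ccnb1 and Ccnb2 each have a pseudogene copy named after them, with which reads could be shared.

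Counted over all comparisons, the first asked how microglia differed under anti-CTLA4 alone. Of the 39 genes, 11 fell in the libraries labelled anti-CTLA4 against IgG and 0 rose, which is 28.2% lower. The background was 28.8% lower and 9.29% higher: 3747 of 13028 tested genes fell in the same comparison and 1210 rose (limma, two-sided, Benjamini-Hochberg adjusted p under 0.05), so the members' share was near that of genes at large and is no result about them. With median-of-ratios scaling 2277 fell and 1922 rose, with quantile normalization 2081 and 1928, and with scaling to the homeostatic microglia genes 7334 and 76, as the median of all genes moved from -0.31 to -0.066, -0.009 and -1.02. The calls were Ccna2, Ccnb1, Ttk, Cenpa, Kif11, Tpx2, Hmmr, Ect2, Cdca3, Top2a and Ncapd2. Differences were below 0 for 39 of 39 genes, beside 8634 of all 13028 tested genes. The median over the 39 was -0.77, with a range from -1.47 (Ncapd2) to -0.24 (Kif2c), beside a median of -0.31 over all tested genes. The groups did not overlap for 26 of 39 (66.7%), against 54.1% of tested genes. Both libraries labelled anti-CTLA4 moved the size. Without replicate 2 the median was -0.30, beside -0.29 for all genes, and 0 of 39 passed (8 at an unadjusted p under 0.05), but so did 0 of all 13028 genes. Without replicate 1 the median was -1.36 and 34 of the 39 fell, beside 2787 of 13028. Without IgG replicate 1 or 2, 0 passed (8 and 15 unadjusted), beside 0 and 440 of all genes lower, with medians of -0.705 and -0.93, and without depletion replicate 3, which enters only through the shared spread, 6 passed. Median-of-ratios scaling, quantile normalization and no filter on low values left 3, 2 and 3 calls. Without the filter 3108 of 19667 genes fell. Scaling to the homeostatic microglia genes gave 37 calls, with a median of -1.51. Kif2c turned to 0.017 with median-of-ratios scaling and 0.069 with quantile normalization.

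The second comparison asked what differed with CD4 depletion under anti-CTLA4. Of the 39 genes, 29 rose against the libraries labelled anti-CTLA4 and 0 fell, which is 74.4% beside a background of 22.8% higher and 6.59% lower (2969 and 858 of 13028 tested genes). With median-of-ratios scaling 1669 tested genes rose and 1437 fell, with quantile normalization 1452 and 1460, and with scaling to the homeostatic genes 7382 and 103, as the median of all genes moved from 0.27 to 0.062, -0.008 and 0.93. The median difference was 1.16, with a range from 0.45 (Kif2c) to 1.60 (Ccna2), and the median of all tested genes was 0.27. Groups did not overlap for 38 of 39 genes (97.4%), against 44.7% of tested genes. The genes that did not pass were Cdk1, Aurka, Aurkb, Cdca8, Kif2c, Nusap1, Prc1, Ube2c, Mki67 and Smc2. Both comparisons use the same anti-CTLA4 libraries, so they are not independent of each other. Without anti-CTLA4 replicate 2 the median was 0.63, beside 0.26 for all genes, and 0 passed (25 unadjusted), as did 0 of all 13028 genes. Without replicate 1 the median was 1.69 and 38 of the 39 rose, beside 2051 of 13028. Without depletion replicates 2 and 3 the counts were 4 and 0 (34 unadjusted for the latter), beside 979 and 668 of all genes higher, at medians of 1.14 and 1.15. The count was 19 without either IgG library and 19 with only the compared groups in the fit. With median-of-ratios scaling 14 passed and with quantile normalization 13, with medians of 0.97 and 0.90. No filter on low values left 11, beside 1861 of 19667 genes higher. Scaling to the homeostatic genes gave 39 with a median of 1.80.

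**Figure D3:**
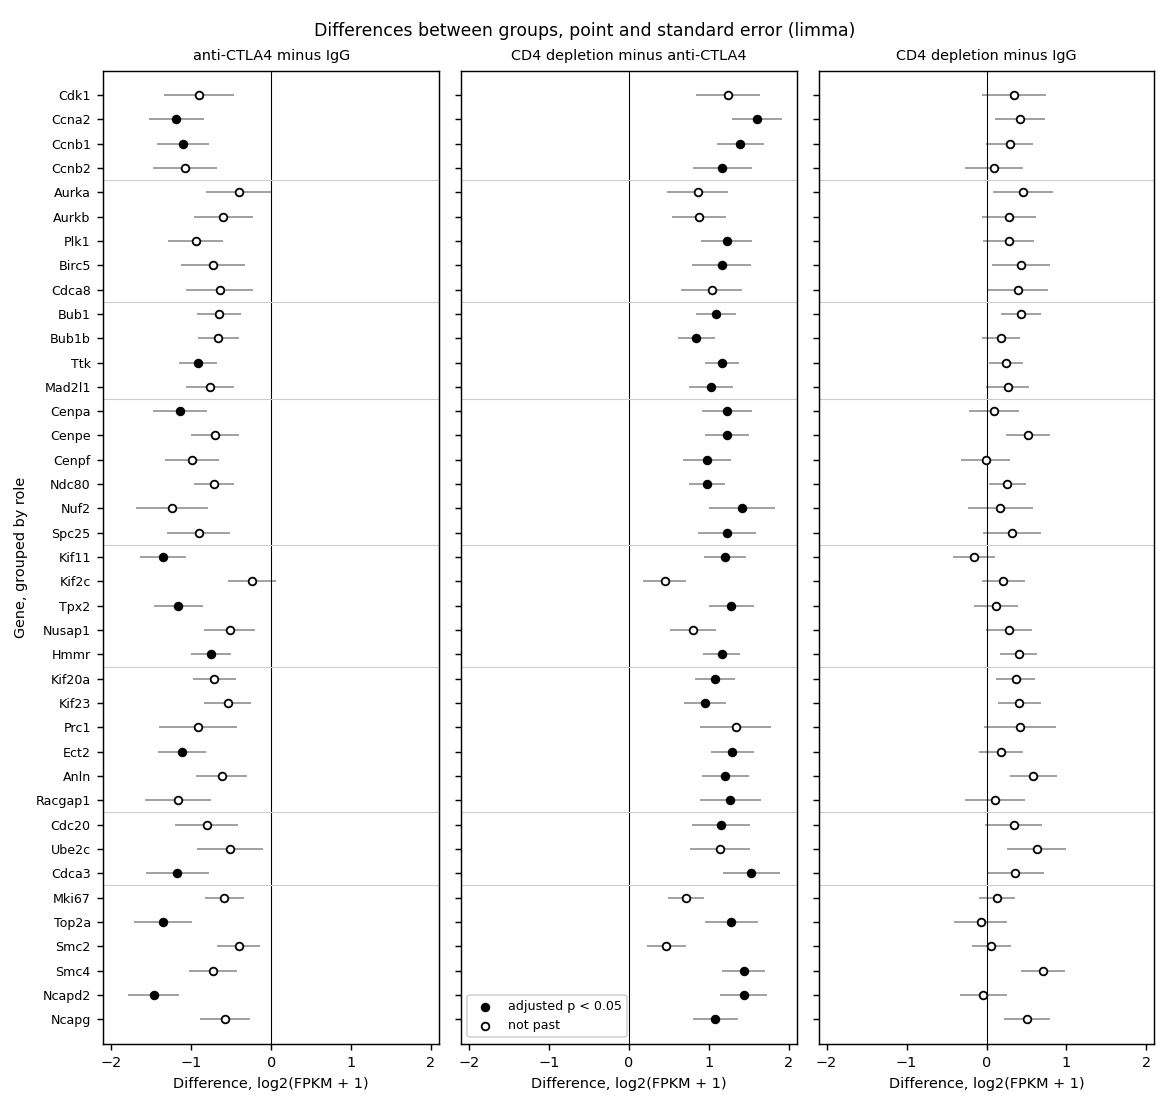
Difference of each mitotic gene in the 3 comparisons on the log2(FPKM + 1) scale, with its standard error from limma; filled points passed the adjusted threshold. There are 11 filled points in the first panel, 29 in the second and 0 in the third.

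**Figure D4:**
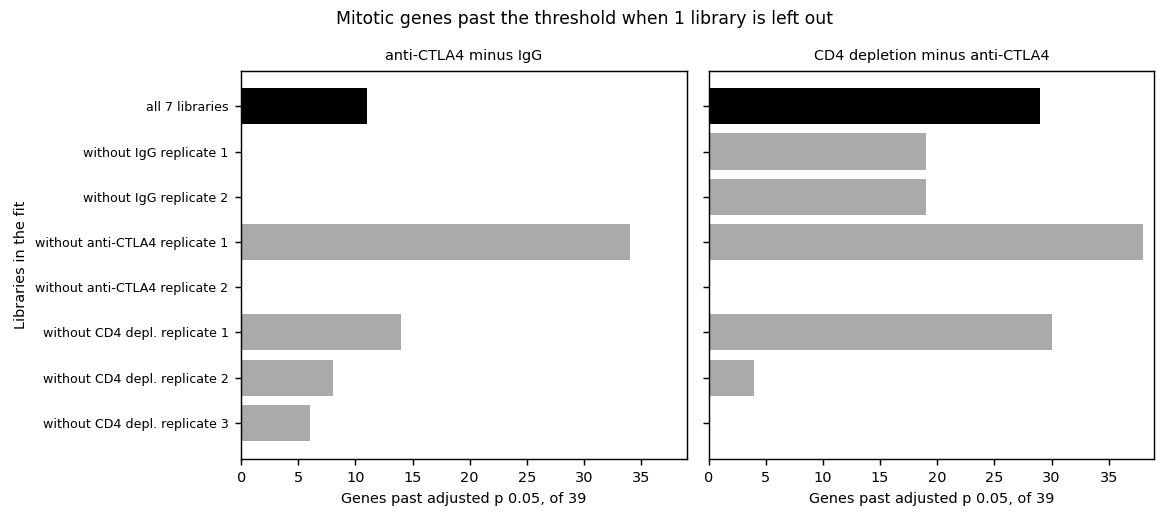
Number of the 39 genes past the threshold in the fit of all 7 libraries (black) and when 1 library was left out (grey), for anti-CTLA4 against IgG and for depletion against anti-CTLA4. The counts range from 0 to 34 and from 0 to 38.

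The third comparison, depletion against IgG, uses the libraries whose label is in doubt only in the shared spread. No mitotic gene passed in it: limma called 0 of 39, and 0 of all 13028 tested genes (a background of 0%), with 1 and 851 at an unadjusted p under 0.05. The 1 was Smc4 (0.71, SE 0.27, adjusted p = 0.71). Differences were above 0 for 35 of 39 genes, beside 5764 of all 13028 tested genes. The median over the 39 was 0.29, with a range from -0.16 (Kif11) to 0.71 (Smc4), beside a median of -0.038 over all tested genes. All 3 depletion libraries were above both IgG libraries for 18 genes (46.2%), against 11% of tested genes, among them Ccna2, Birc5, Cenpe, Spc25 and Cdca3. Cenpf, Kif11, Top2a and Ncapd2 were the 4 with differences below 0. Groups of 2 and 3 libraries are small, and the exact permutation test of a single gene cannot go below p = 0.1 here or below p = 0.333 for 2 libraries against 2.

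Other genes of the cell cycle were described from lists of their functions. Of 34 genes of DNA replication and S phase, 22 (64.7%) fell in the libraries labelled anti-CTLA4 against IgG. With depletion against those libraries 25 (73.5%) rose, and the medians were -0.92 and 1.02. Among all tested genes 28.8% fell and 22.8% rose. Orc6, a subunit of the origin recognition complex, stood at 17.5 and 16.6 FPKM in IgG, 8.48 and 5.21 in the libraries labelled anti-CTLA4, and 16.99, 19.1 and 20.3 with depletion. Of 31 tested genes of the centromere, kinetochore and checkpoint outside the 39, 12 (38.7%) fell and then 18 (58.1%) rose. Of 29 other mitotic motors, spindle genes and kinases 11 (37.9%) fell and 23 (79.3%) rose. Condensin subunits outside the 39 had 1 fall (25%) and 3 rises (75%) among 4, the share of falls near that of genes at large. Cohesin, which holds sister chromatids together and also shapes interphase chromatin, had 3 of 13 lower (23.1%) and 4 higher (30.8%), beside 28.8% and 22.8% of all tested genes, with medians of -0.55 and 0.44. The anaphase-promoting complex and its regulators, also used outside mitosis, had 6 of 15 lower (40%) and 5 higher (33.3%), with medians of -0.49 and 0.52. These medians stand beside -0.31 and 0.27 for all tested genes, and kept their signs under the other scalings. With median-of-ratios scaling 2277 of all 13028 tested genes fell in the first comparison and 1669 rose in the second. The falls and rises were then 14 and 17 for replication, 6 and 9 for the centromere list, and 4 and 12 for other motors. They were 0 and 1 for condensin, 3 and 2 for cohesin, and 1 and 2 for the anaphase-promoting complex. With quantile normalization 2081 of all tested genes fell in the first comparison and 1452 rose in the second. The replication list then had 13 and 16, the centromere list 4 and 8, and other motors 2 and 9. Condensin then had 0 and 1, cohesin 3 and 1, and the anaphase-promoting complex 3 and 2.

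Regulators of mitotic transcription included Foxm1 and Mybl2. Of 14 such factors 5 fell (35.7%, against 28.8% of all tested genes) and then 6 rose (42.9%, against 22.8%). With quantile normalization 3 fell and 1 rose, then 3 rose and 1 fell, with medians of -0.045 and 0.020. Foxm1, the forkhead activator of mitotic genes, stood at 8.05 and 8.05 FPKM in IgG, 3.95 and 1.62 in the libraries labelled anti-CTLA4, and 5.12, 8.48 and 8.05 with depletion, with -1.33 (SE 0.34, limma adjusted p = 0.0224) and 1.16 (SE 0.31, adjusted p = 0.0311). In depletion replicate 1 it lay below both IgG libraries. Mybl2, or B-Myb, stood at 1.46 and 1.77 FPKM in IgG, 1.38 and 0.469 in the libraries labelled anti-CTLA4, and 2.24, 2.11 and 2.15 with depletion and passed only against the libraries labelled anti-CTLA4 (0.76, SE 0.23, adjusted p = 0.0474). Tfdp1, the partner of E2F factors, had the smallest p of that list in both comparisons (-1.54 and 1.35).

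G1 regulators and inhibitors of the cycle act before S phase. Of 17 G1 genes 5 fell in the libraries labelled anti-CTLA4 (29.4%) and 7 rose with depletion (41.2%). Among all tested genes 28.8% fell and 22.8% rose, so the share of falls was near that of genes at large. The first G1 median, -0.25, turned to 0.11 with quantile normalization. Ccnd1, cyclin D1, stood at 251 and 209.9 FPKM in IgG, 36.9 and 15.2 in the libraries labelled anti-CTLA4, and 72.3, 181 and 146 with depletion, with both IgG libraries highest. Of 12 inhibitors and antiproliferative genes, 4 fell (33.3%) and 2 rose (16.7%) in the first comparison, beside 28.8% and 9.29% of all tested genes. In the second 3 rose (25%) and 2 fell (16.7%), beside 22.8% and 6.59%. Their first median, -0.12, turned to 0.16 with median-of-ratios scaling and 0.15 with quantile normalization. Cdkn2a, which encodes p16 and p19Arf, and its neighbour Cdkn2b, which encodes p15, were among the falls. Cdkn2a stood at 61.5 and 46.96 FPKM in IgG, 9.65 and 2.02 in the libraries labelled anti-CTLA4, and 32.9, 36.96 and 39.7 with depletion, and Cdkn2b at 63.3 and 44.4 FPKM in IgG, 9.54 and 2.68 in the libraries labelled anti-CTLA4, and 36.8, 49.4 and 40.1 with depletion. Both genes were lowest in the libraries labelled anti-CTLA4, as the mitotic genes were. Cdkn1a, or p21, stood at 16.3 and 18.2 FPKM in IgG, 42.3 and 20.5 in the libraries labelled anti-CTLA4, and 77.4, 14.2 and 21.6 with depletion, passed in no comparison, and was highest in depletion replicate 1.

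Markers of other cells differed between the groups as well. The oligodendrocyte precursor-like and tumour list (21 genes, none at 0 in all libraries) summed to 834 and 1175 FPKM in IgG, 117 and 48.7 in the libraries labelled anti-CTLA4, and 221, 715 and 505 with depletion. Of the 21, 20 fell against IgG (95.2%) and 17 rose with depletion (81%), beside 28.8% and 22.8% of all tested genes. With median-of-ratios scaling 18 fell and 14 rose, and with quantile normalization 17 and 11. Olig2, a transcription factor of that lineage, stood at 54.5 and 87.01 FPKM in IgG, 10.5 and 3.82 in the libraries labelled anti-CTLA4, and 14.8, 54.8 and 37.96 with depletion. Against IgG, depletion gave 0 calls among the 21 and 0 among the 39 mitotic genes, with medians of -0.91 and 0.29. Depletion replicate 1 had the lowest tumour-marker sum of its group and also the lowest sum of the mitotic genes, 492 against 592 and 573 FPKM. In it 29 of the 39 mitotic genes stood above the IgG mean, with a median difference of 0.20. In replicates 2 and 3 these were 38 and 35 genes, with medians of 0.36 and 0.35. The part of tumour cells in the mitotic differences was not tested.

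Homeostatic microglia markers (20 genes) ran the other way, at 6403 and 5184 FPKM in IgG, 9520 and 14080.0 in the libraries labelled anti-CTLA4, and 4466, 7231 and 6781 with depletion. In the first comparison 7 rose (35%) and in the second 6 fell (30%), beside 9.29% and 6.59% of all tested genes. With median-of-ratios scaling these were 12 and 11, and with quantile normalization 4 and 2. Scaling to this list itself left 0 in both, but that step evens out the list's own mean between libraries, so this is no result about it. Markers of recruited monocytes and macrophages (16 genes, 13 tested) summed to 353 to 1175 FPKM in 6 libraries and to 3808 in depletion replicate 1, where Ccr2, the chemokine receptor of monocytes, was at 43.1 FPKM against at most 2.24 elsewhere. Neutrophil markers (10 genes) were at 556 there and at 37.0 to 179 elsewhere. Leaving that library out gave 14 mitotic calls in the first comparison, beside 4425 of all 13028 tested genes lower. In the second it gave 30, beside 4133 of all tested genes higher, with a median of 1.22 over the mitotic genes. Astrocyte markers (10 genes) summed to 248 and 312 FPKM in IgG, 123 and 80.4 in the libraries labelled anti-CTLA4, and 197 to 335 with depletion. Endothelial and mural markers (17 genes) were at 45.4 and 54.0, 442 and 252, and 83.3 to 197. Erythroid markers (8 genes, 6 tested) summed to 334 and 54.3 FPKM in IgG and 982 and 942 in the libraries labelled anti-CTLA4. With depletion they summed to 167 to 579.7. Of the 6, 4 (66.7%) rose in the first comparison, beside 9.29% of all tested genes, with a median of 2.83. With quantile normalization 1 rose. Of 7 tested dendritic cell markers 3 (42.9%) rose in the first comparison, with a median of 1.31. T and NK cell markers (14 genes with a row) summed to no more than 13.5 FPKM in any library. The part of these cells in the result was not tested.

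**Figure D5:**
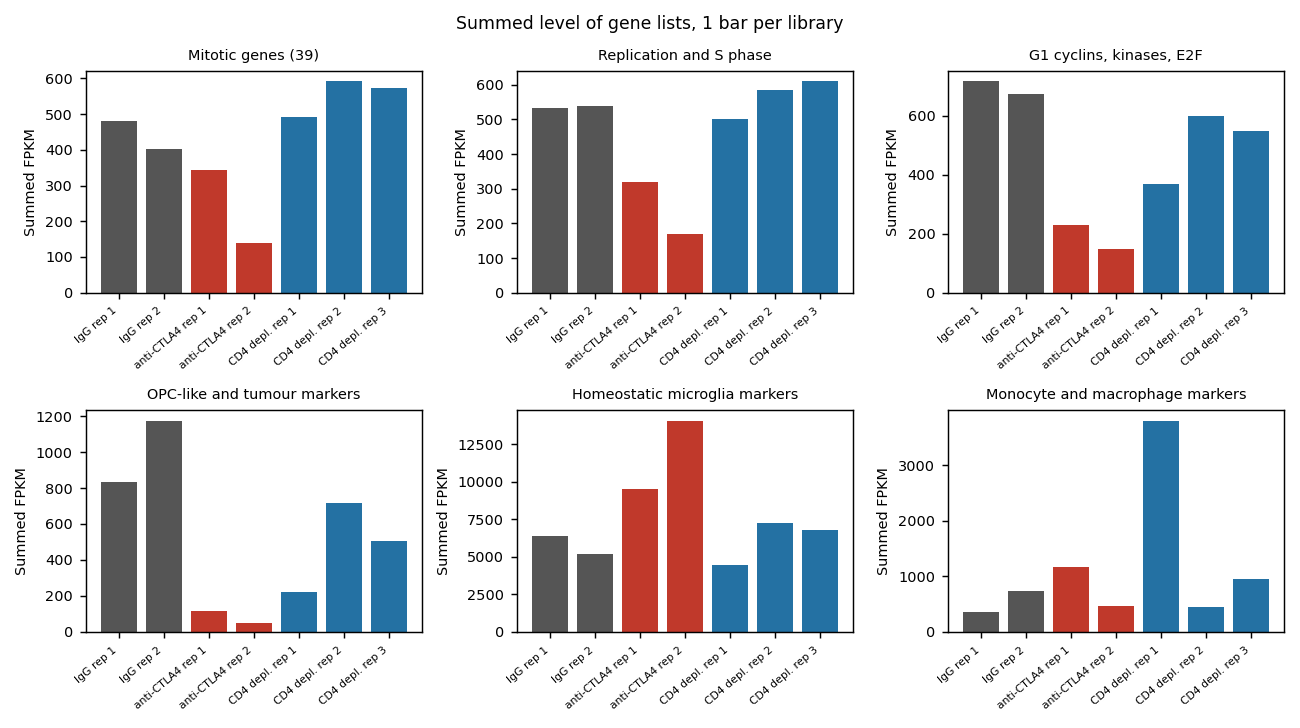
Summed FPKM of the mitotic genes and of 5 other gene lists, with 1 bar per library in grey (IgG), red (labelled anti-CTLA4) and blue (CD4 depletion). The mitotic bars are highest with depletion (492 to 592), the tumour-marker bars in IgG (834 and 1175), and the microglia bars in the libraries labelled anti-CTLA4 (9520 and 14080.0).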

How the data were processed

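RNA from sorted microglia was sequenced after an ultra-low-input library preparation on a HiSeq2500, per the labels' protocols. STAR, HOMER, DESeq2 and build mm10 are named in the submitters' processing notes, without versions. The FPKM values deposited by the authors were computed by HOMER from exon reads of both strands, with 1 entry per gene, per the file headers. The table also held a transcript length. The header's command names 40 libraries, of which 7 have a column.

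Values were tested as log2(FPKM + 1) with limma 3.58.1 (R 4.3.3): 13028 genes that reached 1 FPKM in 2 or more libraries, 3 groups with 1 shared spread and a mean-variance trend, two-sided contrasts, Benjamini-Hochberg adjustment over all tested genes and a threshold of 0.05. Differences on this scale understate the change of low genes. Depth was read from transcripts of 200 to 800 nucleotides, where 100% of 272 to 304 values of up to 20 reads lay within 0.1 of a whole number. No count test was run. The fit was tested on simulated data.

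The members and lists were chosen with earlier results of these data known, so no set test was run and lists are given by counts and medians. Members described with every library are, per role, the 2 most abundant, a panel of 6 (Mki67, Top2a, Cdk1, Ccnb1, Aurkb, Plk1) and, per comparison, the 4 with the smallest and 2 with the largest p; others were added where a result turned on them. Pathway genes named are those with the smallest p of their list, and a panel. Promoters come from RefSeq, exon overlaps from GENCODE M21 (GRCm38). Alternatives were other pseudocounts (0.1 and 5), filters, scalings, the samples in the fit, no trend, a replicate block and leaving out each library.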

Additional observations from a re-analysis of the deposited data

How the results depend on the processing

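The direction of the medians was kept in every alternative run in all 3 comparisons, and the calls were not. For anti-CTLA4 against IgG, the 11 calls became 3 with no filter on low values, 3 with median-of-ratios scaling, 2 with quantile normalization and 37 with scaling to the homeostatic list (median -1.51). Leaving out 1 library gave 0 to 34 calls and medians from -1.36 to -0.30. For depletion against anti-CTLA4, the 29 calls became 11 with no filter, 14 with median-of-ratios scaling, 13 with quantile normalization, 19 with only the compared groups and 39 with scaling to the homeostatic list (median 1.80). The pseudocount of 5 gave a median of 0.75, and leaving out 1 library gave 0 to 38 calls and medians from 0.63 to 1.69. A group left with 1 library is assumed to vary like the others, and the test then has fewer degrees of freedom. Depletion against IgG had 0 calls throughout, with 0 to 7 genes at an unadjusted p under 0.05.

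With the replicate number as a replicate block, 2 genes fell in the first comparison, beside 2068 of 13028 tested genes. In the second 0 passed (34 unadjusted), as did 0 of 13028 tested genes. Deviations of same-numbered libraries from their group means had r from -0.205 to 0.123. In a group of 2 libraries these deviations mirror each other, so the values cannot show whether same-numbered libraries were paired. The crossed pairing, added after the data were seen because same-numbered IgG and anti-CTLA4 libraries gave r = -0.125, left 5 calls in the first. Under that pairing 2802 of 13028 tested genes fell.

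Of single genes, Kif2c in the first comparison turned to 0.017 with median-of-ratios scaling and 0.069 with quantile normalization. Without anti-CTLA4 replicate 2 the signs of 5 uncalled genes turned there; their ranges over the left-out libraries were -1.09 to 0.29 (Aurka), -1.23 to 0.033 (Aurkb), -1.37 to 0.080 (Cdca8), -0.54 to 0.064 (Kif2c) and -1.07 to 0.036 (Ube2c). In depletion against IgG, Cenpf turned to 0.001 with a pseudocount of 5, 0.024 with median-of-ratios scaling and 0.032 with quantile normalization. Ncapd2 turned to 0.006 with median-of-ratios scaling and Racgap1 to -0.017 with the replicate block. Ranges there over the left-out libraries were -0.002 to 0.19 (Ccnb2), -0.16 to 0.21 (Cenpf), -0.29 to 0.15 (Top2a), -0.041 to 0.16 (Smc2), -0.13 to 0.087 (Ncapd2), -0.009 to 0.25 (Tpx2), -0.054 to 0.63 (Nusap1) and -0.017 to 0.31 (Racgap1). The cause of these changes was not tested beyond the loss of libraries.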

Other observations

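Among 7869 other tested genes with a mean of at least 5 FPKM, those whose levels over the 7 libraries were most like the mean of the mitotic genes were Gtf2b (r = 0.997), Hist1h2ae (0.992), Adamts14 (0.992), Dlgap5 (0.989) and Fam64a (0.987). Dlgap5 is a spindle protein and Hist1h2ae a histone H2A gene. Gtf2b, the general transcription factor TFIIB, ranged only from 20.7 to 29.3 FPKM, while Adamts14, a matrix protease, ranged from 0.505 to 8.88. These are descriptions over 7 libraries in 3 groups, with no test.

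Shares of single genes in the mitotic transcripts varied between libraries. Ube2c made up 4.99% to 9.04% of the summed FPKM of the 39 genes in the 7 libraries, Plk1 2.62% to 3.04% and Spc25 2.31% to 2.92%. Kif2c had the widest relative range, from 1.00% in depletion replicate 3 to 2.91% in anti-CTLA4 replicate 2, and followed the mean of the other 38 least closely (r = 0.721).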
